A study of Mus musculus with 10 samples.

Results

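The 37 genes described here encode motile cilium parts of ciliated airway cells, transcription factors of the cilium program and some other proteins of these cells. They were taken by symbol from a table of 54532 genes, all 37 symbols were found, and all 37 passed the filter on low counts that left 17139 genes to be tested. The libraries were made from lung tissue of wild-type (WT) mice. There were 3 libraries labelled Vehicle, 3 labelled LPS and 4 labelled LPS+TSLP. LPS is bacterial lipopolysaccharide, a trigger of acute lung inflammation, and TSLP is thymic stromal lymphopoietin, a cytokine released by epithelial cells. Age, sex, doses, routes and times were not given in the sources used here. No label said whether the libraries of a group came from separate animals, so each p-value measures only the spread between these libraries.

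Ciliated cells line the conducting airways and move mucus with many beating cilia per cell. Each cilium has a skeleton of microtubule doublets, the axoneme, on which dynein motors, radial spokes and a central apparatus work together. Foxj1 and Rfx factors drive the genes of this structure, and many promoters of cilium genes carry an X-box, the DNA element that Rfx proteins bind. Whole lung is mostly alveolar tissue, so the level of these genes in a library depends on the share of airway in the piece of tissue as well as on the state of the ciliated cells.

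The X-box is shown first, since promoter letters were not used to choose the members and some of the promoters hold a match. RefSeq promoters on GRCm38.p6 (300 bases, from 250 before the start site to 50 after it) were at hand for 32 of the 37 members, as 37 promoters. The members with no entry were Foxj1, Rsph1, Rsph4a, Cfap54 and Tppp3. The searches were not part of the planned tests, and their forms come from general knowledge of the X-box. The loose form, an inverted repeat with free bases inside and between its arms, reads the same on both strands. It was present in 11 of the 37 promoters (29.7%), against 7.17% of all 32851 promoters of the same length. The X-box arm GTTGCC, searched on both strands and overlapping the loose form in part, was present in 18 (48.6%), against 12.5% of all promoters. A strict form, which fixes more letters of both arms, was found in 0 of the 37, against 0.451% of all, and the forkhead letters TGTTTAC on both strands were found in 1 (2.7%), against 3.65% of all. In 96 promoters of 85 other motile cilium genes, the same 4 searches gave 33.3% for the loose form, 43.8% for the arm, 5.21% for the strict form and 9.38% for the forkhead letters. A match describes the letters in this window and does not show binding.

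The 120 bases before the start site are printed for 5 of the members whose loose match lies in that stretch. Cfap126 also holds a loose match there, at position -82, and is not printed. They were chosen because they hold a match, and the match is in capitals. They are from chr1:69826850-69826969 (plus strand, Spag16), chr8:110266857-110266976 (plus, Hydin), chr16:44394679-44394798 (plus, Cfap44), chr11:72361883-72362002 (minus, Tekt1) and chr11:69549109-69549228 (minus, Dnah2).
Spag16: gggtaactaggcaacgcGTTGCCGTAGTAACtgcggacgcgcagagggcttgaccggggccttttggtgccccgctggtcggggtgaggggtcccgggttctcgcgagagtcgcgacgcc
Hydin: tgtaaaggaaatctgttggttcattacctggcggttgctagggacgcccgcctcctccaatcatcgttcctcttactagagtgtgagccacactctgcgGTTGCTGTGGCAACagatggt
Cfap44: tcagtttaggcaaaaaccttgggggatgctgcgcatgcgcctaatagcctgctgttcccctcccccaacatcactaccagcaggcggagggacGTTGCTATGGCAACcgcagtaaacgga
Tekt1: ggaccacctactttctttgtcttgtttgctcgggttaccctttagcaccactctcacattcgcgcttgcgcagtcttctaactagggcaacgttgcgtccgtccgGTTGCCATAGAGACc
Dnah2: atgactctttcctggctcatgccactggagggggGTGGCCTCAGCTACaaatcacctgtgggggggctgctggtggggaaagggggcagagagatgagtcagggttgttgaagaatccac
The matches start at positions -103, -21, -27, -15 and -86 from the start site, in the same order. Ccno, a regulator described next, holds the loose match GTTGCCACGGTGAC further out, at position -219.

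Total counts ran from 16175172 to 18374461 per library, and 20623 to 23917 genes had at least 1 count. Mitochondrial genes took 13.1% of the counts in LPS+TSLP replicate 1, 6.50% and 5.35% in LPS+TSLP replicates 2 and 3, and 1.11% to 2.58% in the other 7 libraries. LPS+TSLP replicate 1 also stood apart in tissue markers, as given below, so results that rest on it are given with and without it. Levels are CPM (counts scaled to a common library size) scaled by TMM, and values are listed in replicate order. The 7 markers fixed as defining ciliated cells (Foxj1, Ccdc153, Tmem212, Sec14l3, Rsph1, Tekt1 and Dynlrb2) were detected in all 10 libraries.

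For most cilium genes the 3 Vehicle libraries lay closer together than the treated libraries did. The ratio of the highest to the lowest library, with 0.5 CPM added, had a median over the members of 1.29 in Vehicle, 2.80 in LPS and 4.63 in LPS+TSLP. Over all genes tested the medians were 1.34, 1.56 and 1.78. Without LPS+TSLP replicate 1 the LPS+TSLP median was 1.67 over the members and 1.46 over all genes tested. The mean log2 CPM over the members was 4.10, 4.13 and 4.08 in Vehicle, 3.70, 2.81 and 3.87 in LPS, and 4.97, 3.24, 3.35 and 3.74 in LPS+TSLP. By this mean, LPS replicate 2 was the lowest library and LPS+TSLP replicate 1 the highest. The summed CPM of the members ranked them otherwise. Vehicle replicate 1 was highest there (2618, against 2186 in LPS+TSLP replicate 1). LPS+TSLP replicate 3 was lowest (847, against 866 in LPS replicate 2). Of the 37 members, 23 had their highest level of all 10 libraries in LPS+TSLP replicate 1, against 13.1% of all genes tested. Their lowest level was in LPS replicate 2 for 19 members, against 5.87% of all genes tested.

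**Figure D1:**
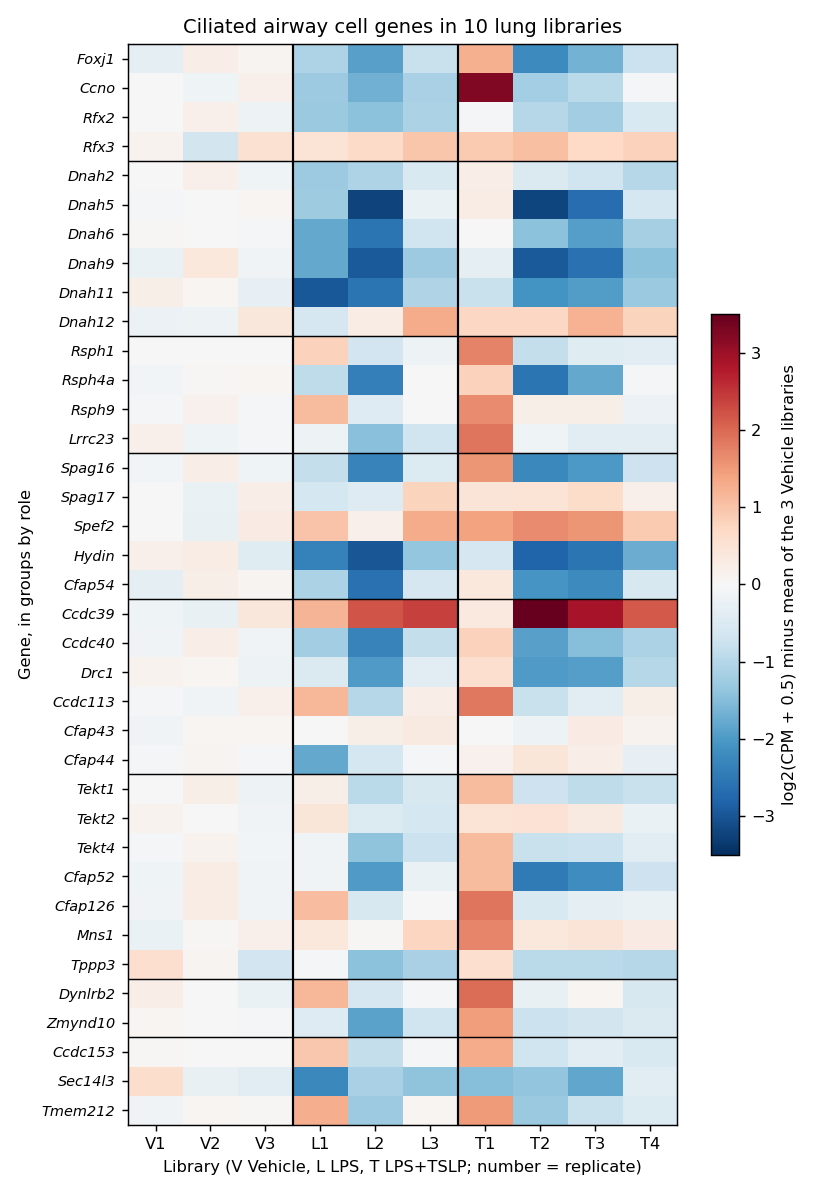
Level of each of the 37 members (rows, in groups by role) in each library (columns), as log2(CPM + 0.5) minus the mean of the 3 Vehicle libraries, red for higher and blue for lower. Most rows are near white in the Vehicle libraries, and LPS+TSLP replicate 1 (T1) is the column with most of the red, being highest for 23 of 37 members.

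After LPS, 4 members fell (Rfx2, Dnah11, Hydin and Sec14l3), 1 rose (Ccdc39) and 32 did not pass the test, which was edgeR's quasi-likelihood test with adjustment over all genes tested at 0.05, two-sided. Over all genes tested, 10.7% were called lower and 14.2% higher. The share of members called lower was close to the first value, and the share called higher was below the second. The median log2 fold change was -0.71 over the members and 0.01 over all genes tested. In 18 members the 3 LPS libraries all lay below the 3 Vehicle libraries, and in 1 they all lay above. The same held for 25.1% (below) and 24.7% (above) of all genes tested. In bulk tissue, a smaller share of airway in the piece, fewer ciliated cells and less cilium RNA per cell cannot be told apart.

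The spread in this test is estimated over all 10 libraries. Without LPS+TSLP replicate 1, the same comparison of LPS with Vehicle called 10 members lower (Foxj1, Ccno, Rfx2, Dnah2, Dnah6, Dnah9, Dnah11, Hydin, Ccdc40 and Sec14l3) and 1 higher (Ccdc39). In that fit 14.4% of all genes were called lower and 17.5% higher. The median over the members was -0.70. Leaving out Vehicle replicate 1 kept only Rfx2 as a call, and leaving out Vehicle replicate 2 kept only Sec14l3. Without LPS replicate 1 the calls were Rfx2 and Ccdc39, and without LPS replicate 2 they were Rfx2, Sec14l3 and Spef2. Without LPS replicate 3, and with the GC trend of each library removed, Ccdc39 was not called. With no filter on low counts, Hydin and Ccdc39 were not called. The shares of all genes called in these other fits are not given here, so a change in calls may not concern the members alone.

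LPS+TSLP against LPS gave 0 called members, and 0% of all genes tested were called. At an unadjusted p under 0.05 there were 4 members, the adjusted p ranged from 0.589 to 0.996, and the DESeq2 Wald test also called 0. All 37 members overlapped between these groups, and the share of all genes tested that did so was not counted. The median log2 fold change was 0.45, with 34 of 37 positive, and it was -0.15 without LPS+TSLP replicate 1.

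LPS+TSLP against Vehicle called 2 members higher (Spef2 and Ccdc39) and 0 lower, against 8.82% and 5.35% of all genes tested. The median log2 fold change was 0.06. Without LPS+TSLP replicate 1 it was -0.75, and 9 members were called lower (Foxj1, Rfx2, Dnah6, Dnah9, Dnah11, Spag16, Hydin, Ccdc40 and Drc1) and 2 higher (Spef2 and Ccdc39). In that fit 7.9% of all genes were called lower and 11.4% higher. No member was called with the GC trend of each library removed, or without Vehicle replicate 1, Vehicle replicate 2 or LPS+TSLP replicate 2. Without LPS+TSLP replicate 3 only Spef2 was called. For these fits too, the shares of all genes called are not given here. LPS and LPS+TSLP are compared with the same Vehicle libraries, so the values of the 2 comparisons are not independent.

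Among the regulators, Foxj1, the master regulator of motile cilia, stood at 97.7, 144 and 131 CPM in Vehicle, 57.3, 32.2 and 71.9 in LPS, and 292, 26.0, 38.4 and 72.6 in LPS+TSLP. The LPS libraries and LPS+TSLP replicates 2 to 4 all lay below Vehicle, while LPS+TSLP replicate 1 lay above every other library. Its log2 fold change after LPS was -1.21 (SE 0.73, adjusted p = 0.242 by edgeR), and -1.19 (SE 0.36, adjusted p = 0.0286 by edgeR) without that library.

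Ccno, a cyclin-like protein needed to multiply the basal bodies of multiciliated cells, had 4.27, 3.84 and 4.97 CPM in Vehicle, 1.52, 1.02 and 1.72 in LPS, and 45.2, 1.61, 2.02 and 4.21 in LPS+TSLP. LPS and Vehicle did not overlap, and LPS+TSLP replicate 1 was over every other library by a wide margin. The change after LPS was -1.61 log2 (SE 1.08, adjusted p = 0.29 by edgeR), and -1.60 (SE 0.41, adjusted p = 0.014 by edgeR) without that library.

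Rfx2, an X-box factor, gave 21.8, 25.1 and 19.2 CPM in Vehicle, 8.59, 7.74 and 9.997 in LPS, and 21.5, 10.8, 9.16 and 14.9 in LPS+TSLP. It fell after LPS by 1.33 on the log2 scale (SE 0.31, adjusted p = 0.0122 by edgeR), with no overlap between the groups. Rfx3, a related factor, had 6.18, 3.47 and 8.41 CPM in Vehicle, 8.16, 9.32 and 11.6 in LPS and 11.1, 12.3, 9.59 and 10.3 in LPS+TSLP. It was not called after LPS (log2 0.69, SE 0.31, adjusted p = 0.127 by edgeR), and LPS overlapped Vehicle. Removing each library's trend with GC content turned its log2 value after LPS to -0.21.

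The dynein heavy chains are the motors that bend the cilium, and 5 of the 6 had negative log2 fold changes after LPS, with 1 called. Of all 17139 genes tested, 8502 were negative and 10.7% were called lower. Dnah5, an outer arm motor, had 37.7, 38.005 and 40.6 CPM in Vehicle, 16.1, 3.61 and 32.7 in LPS, and 46.7, 3.74, 5.67 and 25.1 in LPS+TSLP. Vehicle spanned a narrow range, while the LPS and LPS+TSLP libraries were scattered (log2 -1.15, SE 0.86, adjusted p = 0.345 by edgeR after LPS). Dnah6, an inner arm motor, had 51.6, 51.3 and 48.8 CPM in Vehicle, 14.3, 8.13 and 30.8 in LPS, and 50.02, 18.4, 13.03 and 22.3 in LPS+TSLP. LPS lay below Vehicle in every library (log2 -1.51, SE 0.52, adjusted p = 0.0525 by edgeR).

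Dnah11, an outer arm motor, had 22.4, 20.3 and 15.8 CPM in Vehicle, 2.01, 2.88 and 8.998 in LPS, and 11.1, 4.14, 4.63 and 7.51 in LPS+TSLP. It fell after LPS by 2.07 log2 (SE 0.54, adjusted p = 0.0193 by edgeR), and all 4 LPS+TSLP libraries also lay below Vehicle (log2 -1.51, SE 0.48, adjusted p = 0.0579 by edgeR). Exons of Cdca7l on the opposite strand cover 4.44% of its exon bases. Dnah2 and Dnah9 lay below Vehicle in all LPS libraries (log2 -0.97 and -1.92), while Dnah12 overlapped (log2 0.54).

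The radial spoke genes, which link the doublets to the central apparatus, gave 0 calls and a median log2 fold change after LPS of -0.30. After LPS, 10.7% of all genes tested were called lower and 14.2% higher, so 0 calls in 4 genes says little. Rsph1, a spoke head protein, had 21.2, 20.8 and 20.7 CPM in Vehicle, 36.9, 12.9 and 18.3 in LPS, and 71.5, 11.6, 15.5 and 16.1 in LPS+TSLP. LPS libraries lay on both sides of Vehicle (log2 0.12, SE 0.62, adjusted p = 0.908 by edgeR). Lrrc23, a spoke component, had 20.7, 16.4 and 17.5 CPM in Vehicle, 15.8, 6.33 and 11.1 in LPS, and 68.4, 16.3, 13.6 and 13.9 in LPS+TSLP. All 4 spoke genes, Rsph4a and Rsph9 included, were highest in LPS+TSLP replicate 1.

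Of the 5 central apparatus genes, 1 fell after LPS, and another rose in LPS+TSLP against Vehicle. Over all genes tested, 10.7% were called lower in the first comparison and 8.82% higher in the second. Hydin, a giant protein of the central pair, had 41.7, 44.2 and 27.6 CPM in Vehicle, 6.76, 4.24 and 14.3 in LPS, and 24.7, 4.83, 5.94 and 10.8 in LPS+TSLP. It fell after LPS by 2.16 log2 (SE 0.60, adjusted p = 0.0248 by edgeR), and all 4 LPS+TSLP libraries lay below Vehicle (log2 -1.71, SE 0.54, adjusted p = 0.0552 by edgeR). Cfap54, another central apparatus protein, had 13.7, 19.8 and 18.1 CPM in Vehicle, 7.68, 2.37 and 11.1 in LPS, and 22.1, 3.68, 3.22 and 11.3 in LPS+TSLP, and was not called (log2 -1.28, SE 0.70, adjusted p = 0.194 by edgeR after LPS).

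Spef2, also of the central apparatus, had 2.86, 2.35 and 3.66 CPM in Vehicle, 6.28, 3.39 and 7.83 in LPS, and 8.57, 10.3, 9.38 and 5.98 in LPS+TSLP. All 4 LPS+TSLP libraries lay above Vehicle, and the rise was 1.53 log2 (SE 0.35, adjusted p = 0.0179 by edgeR). After LPS alone it was not called (log2 0.98, SE 0.36, adjusted p = 0.0672 by edgeR). It was among the members with the lowest level per kilobase of exon in Vehicle, at 0.298 CPM per kb.

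**Figure D2:**
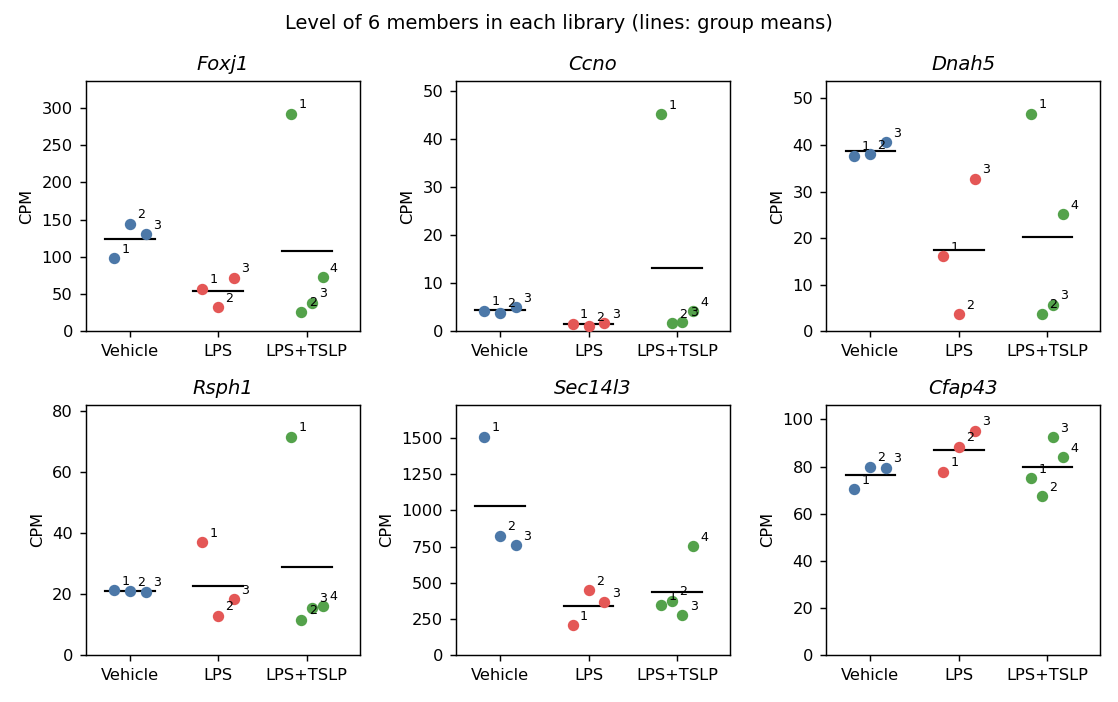
CPM of 6 members in each library (points, numbered by replicate) with group means (lines), vertical axes from 0. Foxj1, Ccno, Dnah5 and Rsph1 each show LPS+TSLP replicate 1 above the other libraries, Sec14l3 is lower in all LPS libraries than in Vehicle, and Cfap43 lies between 67.3 and 95.2 CPM throughout.

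Among the proteins that set the spacing of the motors and tether them, Ccdc40, which forms the axonemal ruler with Ccdc39, had 27.6, 35.1 and 27.5 CPM in Vehicle, 12.5, 5.54 and 16.4 in LPS, and 52.1, 7.65, 10.4 and 13.5 in LPS+TSLP. LPS lay below Vehicle without overlap (log2 -1.39, SE 0.64, adjusted p = 0.131 by edgeR). Ccdc39, its partner in the same complex, had 1.29, 1.17 and 2.13 CPM in Vehicle, 4.08, 8.70 and 9.997 in LPS, and 2.05, 21.7, 14.2 and 8.36 in LPS+TSLP. It rose by 2.30 log2 after LPS (SE 0.69, adjusted p = 0.0331 by edgeR) and by 2.91 in LPS+TSLP (SE 0.68, adjusted p = 0.0201 by edgeR).

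The Ccdc39 count is uncertain, because Ttc14 on the opposite strand shares 1256 exon bases with it, 16.9% of its exon bases, and the strand setting of the counting was not given. Ttc14 had 9.94, 4.38 and 11.1 CPM in Vehicle, 31.4, 61.7 and 55.4 in LPS, and 13.8, 86.2, 65.4 and 50.2 in LPS+TSLP. It rose by 2.55 log2 after LPS (SE 0.58, adjusted p = 0.0112 by edgeR). How far reads of Ttc14 enter the Ccdc39 count was not tested. Mns1 shares 53% of its exon bases with Tex9, Tekt2 20.8% with Gm12945, and Spag17 15.7% with Wdr3 and Spag17os, so their counts carry the same doubt.

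Cfap43, a tether protein of the inner arm motors, had 70.3, 80.0 and 79.5 CPM in Vehicle, 77.8, 88.4 and 95.2 in LPS, and 75.2, 67.3, 92.6 and 84.1 in LPS+TSLP. It varied little across the 10 libraries and showed no peak in LPS+TSLP replicate 1 (log2 0.19, SE 0.18, adjusted p = 0.457 by edgeR after LPS). Exons of Itprip on the same strand cover 2.32% of the exon bases of Cfap43. Drc1, of the nexin link, lay below Vehicle in all LPS libraries, as did Cfap44, while Ccdc113 overlapped; none of these was called after LPS.

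Of the 7 tektins and other microtubule proteins, 0 were called in any comparison with all libraries. Over all genes tested, 10.7% were called lower and 14.2% higher after LPS. For LPS+TSLP against Vehicle these shares were 5.35% and 8.82%, and for LPS+TSLP against LPS 0%. Cfap126 had 15.7, 20.9 and 15.7 CPM in Vehicle, 36.7, 11.6 and 17.4 in LPS, and 63.9, 11.8, 13.7 and 14.6 in LPS+TSLP. Tppp3, a tubulin-binding protein, had 388, 275 and 162 CPM in Vehicle, 246, 95.3 and 119 in LPS, and 390, 135, 134 and 129 in LPS+TSLP. For both, LPS overlapped Vehicle, and LPS replicate 1 was the highest LPS library. In this group 6 of 7 members were highest in LPS+TSLP replicate 1.

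Dynlrb2, a dynein light chain, had 18.6, 15.9 and 13.5 CPM in Vehicle, 36.01, 10.4 and 15.4 in LPS, and 63.2, 13.2, 16.7 and 10.7 in LPS+TSLP. Zmynd10, a factor for dynein arm assembly, had 9.49, 9.02 and 8.57 CPM in Vehicle, 6.52, 2.09 and 5.39 in LPS, and 25.8, 5.18, 5.56 and 6.22 in LPS+TSLP. Neither was called after LPS (adjusted p = 0.703 and 0.277 by edgeR), though Zmynd10 lay below Vehicle in every LPS library.

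Ccdc153, a marker of ciliated cells, had 44.9, 43.3 and 43.0 CPM in Vehicle, 84.7, 24.4 and 42.1 in LPS, and 109, 27.0, 33.7 and 29.8 in LPS+TSLP. Sec14l3, a lipid-binding protein, had 1509, 823 and 759 CPM in Vehicle, 205, 447 and 366 in LPS, and 346, 376, 276 and 753 in LPS+TSLP. It fell after LPS by 1.60 log2 (SE 0.43, adjusted p = 0.0217 by edgeR), and all 4 LPS+TSLP libraries lay below Vehicle (log2 -1.23, SE 0.39, adjusted p = 0.0562 by edgeR).

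Sec14l3 had the highest level per kilobase of exon of the members in Vehicle (370 ± 149 CPM per kb, SD, n = 3), followed by Tppp3 (149 ± 61.1) and Foxj1 (47.4 ± 9.16). It made up 15.8% to 57.6% of the summed member CPM of a library. The sum over all 37 members was 2069 ± 493 CPM (SD, n = 3) in Vehicle, 1012 ± 126 (n = 3) in LPS and 1334 ± 621 (n = 4) in LPS+TSLP. Without LPS+TSLP replicate 1 the LPS+TSLP sum was 1049.9 ± 309 (SD, n = 3). Without Sec14l3 the means were 1038, 672 and 896. Leaving out both Sec14l3 and LPS+TSLP replicate 1 gave 581 ± 65.7 (SD, n = 3) in LPS+TSLP, which is below the LPS mean instead of above it.

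The cilium genes were higher in LPS+TSLP replicate 1 than in the other 3 LPS+TSLP libraries. Its level over the median of those 3, with 0.5 CPM added, had a median of 3.68-fold over the members, and 26 of 37 were at least 2-fold higher. Over all genes tested the median was 0.963, and 8.61% were at least 2-fold higher. This ratio and its 2-fold limit were chosen after the values were seen. The ratio was 4.64 in the radial spoke genes, 3.66 in the tektin group, 2.46 in the dynein heavy chains and 2.12 in the ruler and tether group.

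Over 99 other motile cilium genes the median ratio was 2.77-fold, with 84 of 99 at their highest of all 10 libraries there. Club and secretory airway genes had a median ratio of 7.796, and airway and vascular smooth muscle genes 1.75. Airway lists with few genes tested were mixed. Basal cell genes (5 tested) were at 1.84 and neuroendocrine genes (5) at 1.82. Tuft cell and ionocyte genes (3) were at 0.496 and cartilage genes of large airways (3) at 0.555. Genes of tissue beside the trachea (5) were at 1.07. Alveolar type 2 genes were at 0.284, alveolar type 1 genes at 0.267 and neutrophil genes at 0.159. The summed type 2 level was 6229 CPM in LPS+TSLP replicate 1 and ran from 11862 to 30313 in the other 9 libraries. The part of tissue sampling and of mitochondrial share in the cilium levels of this library was not tested.

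The 24 club and secretory airway genes summed to 23349, 20918 and 14790 CPM in Vehicle, 34693, 16519 and 14087 in LPS, and 34790, 19336, 17384 and 15542 in LPS+TSLP. LPS replicate 1 was thus close to LPS+TSLP replicate 1 in this sum. In Vehicle the 37 members summed to 2618, 1923 and 1665. The 6 proximal secretory genes (Muc5b, Bpifa1, Bpifb1, Reg3g, Scgb3a1 and Tff2), chosen after values were seen, summed to 129, 3403 and 798 CPM in Vehicle, 673, 26.9 and 1118 in LPS, and 6536, 63.0, 375 and 75.9 in LPS+TSLP. LPS replicate 2 was the lowest library for these 6 genes, as it was for the mean log2 CPM of the cilium genes. Because the 6 genes were chosen after the values were seen, this likeness cannot count as support. In Vehicle their sums differed widely, while the mean log2 CPM of the members was 4.10, 4.13 and 4.08. The sum over the 24 genes was lowest in LPS replicate 3, while their mean log2 CPM was lowest in LPS replicate 2 (4.44). Smooth muscle genes summed to 922, 1701 and 1549 CPM in Vehicle, to 670, 676 and 630 in LPS, and to 1480, 736, 795 and 1144 in LPS+TSLP. After LPS, 5 of 10 were called lower, Myh11 and Lmod1 among them, where 10.7% of all genes tested were. This list joins airway and vascular smooth muscle. Such calls were not limited to it, as 5 of 12 endothelial and 5 of 15 alveolar type 2 genes were called lower. In alveolar type 1 genes 0 of 13 were, and in club and secretory genes 2 of 24. The median log2 fold change was -1.10 in smooth muscle, -0.56 in endothelial, -1.05 in type 2, -0.51 in type 1 and -0.95 in club and secretory genes. In neutrophil genes it was 1.15.

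**Figure D3:**
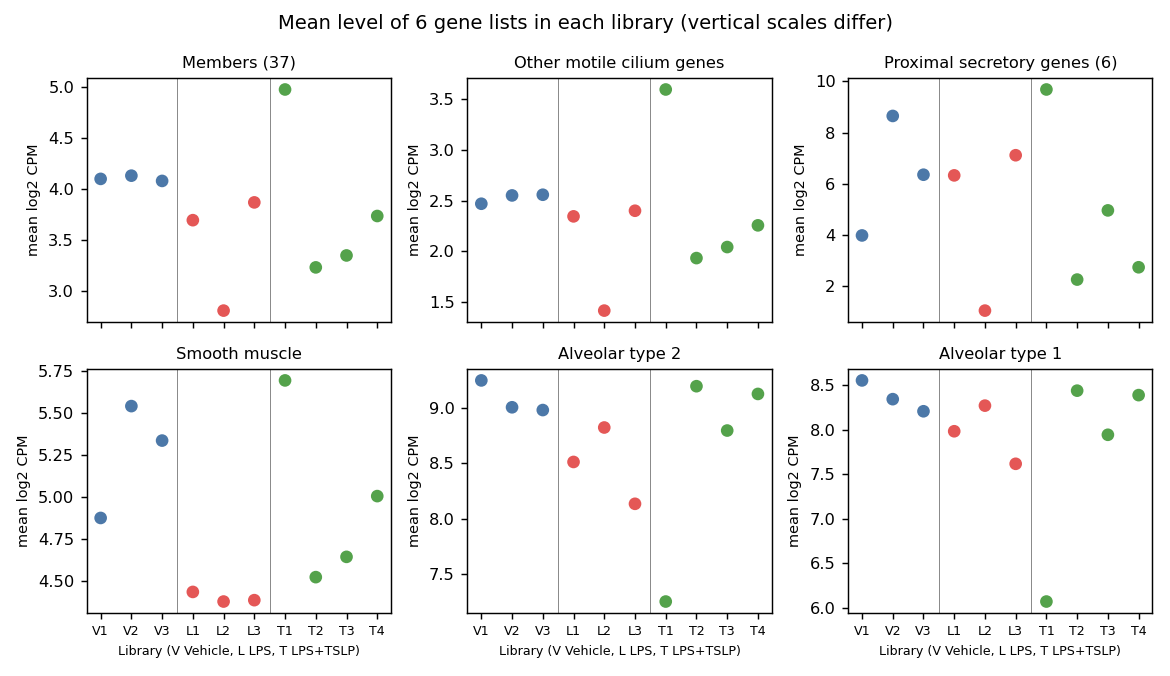
Mean log2 CPM of 6 gene lists in each library (V Vehicle, L LPS, T LPS+TSLP), vertical scales differing between panels. The proximal secretory genes were chosen after the values were seen, and the list of 24 club and secretory airway genes is not drawn. LPS+TSLP replicate 1 is the highest library for the members, the other motile cilium genes, the proximal secretory genes and smooth muscle, and the lowest for alveolar type 1 and type 2 genes.

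Of 13 other regulators of multiciliogenesis, 6 were at least 2-fold higher in LPS+TSLP replicate 1 than the median of the other 3. Over all genes tested 8.61% were. The median ratio of the 13 was 1.12, against 0.963 over all genes tested. Mcidas, which starts the multiciliated cell program, had 1.24, 1.60 and 1.58 CPM in Vehicle, 0.244, 0.621 and 0.111 in LPS, and 10.1, 0.748, 1.14 and 1.22 in LPS+TSLP. Myb, which acts early in the same program, had 8.59, 10.9 and 5.73 CPM in Vehicle, 6.76, 3.45 and 5.55 in LPS, and 36.01, 7.31, 5.18 and 6.59 in LPS+TSLP. Both were named after their values were seen. After LPS, 1 of the 13 was called higher and 0 lower, where 14.2% and 10.7% of all genes tested were.

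Of the 99 other motile cilium genes, 6 fell and 4 rose after LPS, with a median log2 fold change of -0.38, where 10.7% of all genes tested were called lower and 14.2% higher. Dnah1, an inner arm motor, fell by 1.99 log2 (SE 0.44, adjusted p = 0.0107 by edgeR). Cfap69 rose by 1.75 (SE 0.40, adjusted p = 0.0121 by edgeR). Of 33 intraflagellar transport genes, whose proteins carry cargo along primary and motile cilia alike, 7 fell and 2 rose, Ift140 by -1.20 log2 (SE 0.25, adjusted p = 0.0079 by edgeR).

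The members were split by exon length, and no test of the difference between classes was run. The length limits of 3 and 9 kb were chosen after the values were seen. The median log2 fold change was -0.49 over the 18 members with under 3 kb of exon, -0.69 over the 9 between, and -1.22 over the 10 above 9 kb. Over all genes tested, the same classes gave 0.29, -0.12 and -0.32. Pearson's r with log2 exon length was -0.29 across the 37 members and -0.19 across 17133 genes, and r with GC content was -0.44 and -0.38; these are across genes, which share the libraries, and carry no test.

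Against the Vehicle mean, the median of LPS replicate 1 was 0.07 log2 over the short members and -1.29 over the long ones, while LPS replicate 2 was at -1.23 and -2.66 and LPS replicate 3 at -0.49 and -0.57. The members between were at -0.87, -0.63 and -0.0084 in the 3 libraries, above the short members in LPS replicates 2 and 3. Over all genes tested LPS replicate 1 was at 0.44 for short and -0.59 for long genes. With each library's length trend removed, the medians of the members after LPS were -0.72 for the short class, -0.53 for the middle class and -1.04 for the long class, so the order of the short and middle classes turned. With the GC trend removed they were -0.24, -0.66 and -1.25.

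**Figure D4:**
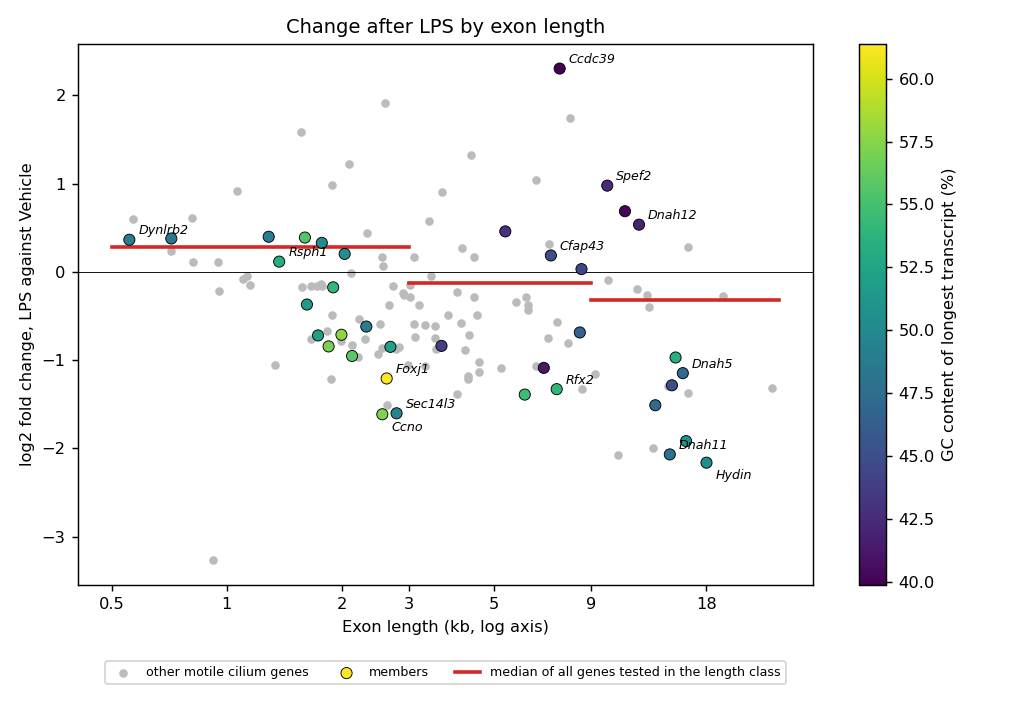
Log2 fold change after LPS against exon length (kb, log axis) for the members (large points, coloured by GC content) and other motile cilium genes (grey), with the median of all genes tested in each length class (red lines). Members above 9 kb have a median of -1.22, with Hydin and Dnah11 lowest and Spef2, Rfx3 and Dnah12 above 0.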

How the data were processed

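Total RNA of mouse lung was sequenced on Illumina libraries, per the labels' protocols. The values are raw counts of reads per gene as the authors deposited them. Tools named in the submitters' processing notes are CASAVA, HISAT2 and HTSeq 0.6.0, with the build GRCm38 (mm10). The strand setting and annotation release are not given in the sources used here. The 37 members and all lists were chosen with earlier results of these data known. Genes were filtered with filterByExpr, and library sizes were scaled by TMM. A single fit of all 10 libraries (7 residual degrees of freedom) used the robust quasi-likelihood test of edgeR (version 4.0.16, under R 4.3.3), with Benjamini-Hochberg adjustment over the 17139 genes tested and a threshold of 0.05. SE is the size of the log2 fold change over the square root of F. Exon length, GC content and exon overlaps came from GENCODE M21. Pairs of libraries within a group differed by more than sampling noise. The deviations of same-numbered libraries from their group means correlated between -0.345 and 0.404. Pairs with unlike numbers were not compared, so these values cannot say whether the numbers pair the libraries. Members with full values are the regulators, the 2 most abundant of every other role and each member called. Alternatives were DESeq2 1.42.0, other size factors, no filter, GC or length trends removed, a replicate block and each library left out.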

Additional observations from a re-analysis of the deposited data

Results flagged for a closer look

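In 23 levels examined over the 4 LPS+TSLP libraries, 10 had 1 library far from the other 3 by Dixon's criterion for 4 samples, and in each it was LPS+TSLP replicate 1, the highest. Chance gives about 1 in 20 such groups, and these levels share their libraries. The levels there were 45.2 CPM for Ccno (next highest 4.21), 71.5 for Rsph1 (16.1), 68.4 for Lrrc23 (16.3), 52.1 for Ccdc40 (13.5) and 63.9 for Cfap126 (14.6). They were 389.7 CPM for Tppp3 (134.8), 63.2 for Dynlrb2 (16.7), 25.8 for Zmynd10 (6.22) and 108.9 for Ccdc153 (33.7). The summed level of the other motile cilium genes was 1742 CPM, against 670.2 in the next library.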

How the results depend on the processing

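The count of members called after LPS was 5 as reported. It was 8 with library size alone, 3 with no filter, 9 by the DESeq2 Wald test, 11 with the 2 groups compared alone and 11 with both LPS replicate 1 and LPS+TSLP replicate 1 left out, and leaving out 1 library gave 1 to 11. For LPS+TSLP against Vehicle the count of 2 became 0 with the GC trend removed, 7 by the DESeq2 Wald test, and 0 to 12 when libraries were left out. The median of that comparison was 0.06, and -0.75 to 0.24 when libraries were left out, being lowest without LPS+TSLP replicate 1. LPS+TSLP against LPS gave 0 calls in every alternative run, and its median ran from -0.15 to 0.79. The summed level became 1038 CPM in Vehicle and 672 in LPS with Sec14l3 left out, and 4.10, 3.46 and 3.82 in Vehicle, LPS and LPS+TSLP as a mean log2 CPM. With the replicate block, 6 members were called after LPS, 0 between LPS+TSLP and LPS, and 3 between LPS+TSLP and Vehicle. The shares of all genes called under these settings are not given here, except those without LPS+TSLP replicate 1, given above. The cause of these shifts was not tested.

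Signs changed in comparisons in which the member was not called with all libraries. After LPS, the log2 value of Rfx3 was -0.21 with the GC trend removed. Rsph1 was at -0.14 with the replicate block and -0.25 with the length trend removed, and Ccdc153 at -0.054 and -0.026. With libraries left out, Rsph1 ran from -0.43 to 0.40, Cfap126 from -0.27 to 0.64, Dynlrb2 from -0.31 to 0.68 and Ccdc153 from -0.40 to 0.54.

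For LPS+TSLP against LPS, the replicate block gave -0.20 for Dnah5, -0.046 for Sec14l3 and 0.086 for Ccdc153. Ccdc153 was at 0.0033 with DESeq2 size factors, 0.049 with upper quartile factors, 0.030 with library size alone, 0.049 with the length trend removed and 0.0042 by the DESeq2 Wald test. With libraries left out, Foxj1 ran from -0.27 to 1.32, Dnah5 from -0.68 to 1.02, Dnah6 from -0.13 to 1.196, Dnah11 from -0.14 to 1.47, Rsph1 from -0.68 to 0.93, Hydin from -0.38 to 1.06 and Cfap54 from -0.26 to 0.99. Ccdc40 ran from -0.15 to 1.21, Cfap126 from -0.74 to 0.89, Tppp3 from -0.23 to 0.92, Dynlrb2 from -0.63 to 1.05, Ccdc153 from -0.76 to 0.63 and Sec14l3 from -0.0040 to 0.62.

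For LPS+TSLP against Vehicle, the GC trend removed gave 0.0034 for Foxj1 and -0.022 for Cfap43. With libraries left out, Foxj1 ran from -1.47 to 0.11, Ccno from -0.76 to 1.97, Rsph1 from -0.55 to 0.72, Lrrc23 from -0.32 to 0.89 and Cfap43 from -0.017 to 0.14. Cfap126 ran from -0.39 to 0.82, Dynlrb2 from -0.24 to 1.0005, Zmynd10 from -0.68 to 0.48 and Ccdc153 from -0.54 to 0.42. How far depth limits the members was not tested. Ccno rested on 25, 18 and 31 reads in the LPS libraries (SE 1.08 after LPS), Spag17 on 25, 31 and 86 (SE 0.44), and the abundant Foxj1 on 941, 570 and 1294 (SE 0.73).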
